A study of Rattus norvegicus with 48 samples.

Results

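The term described here is the line by exercise interaction in old rats: the change from rest to exhaustion in old HCR muscle minus the same change in old LCR muscle. It rests on 24 of the 48 arrays of the series, 6 in each of 4 groups, which were taken by their labels for line, age and exercise. The groups were old HCR exhausted, old HCR at rest, old LCR exhausted and old LCR at rest. All 24 rats were labelled old and all arrays held total RNA from the extensor digitorum longus (EDL), a fast muscle of the lower leg, hybridised to Affymetrix Rat Gene ST 2.1 arrays. The abbreviations HCR and LCR, which the labels do not spell out, commonly stand for lines selected for high or low capacity to run. The labels give no age in months, no length of the run and no time of tissue collection, so that a difference between lines in the response cannot be told apart from a difference in how long the rats ran before exhaustion. Each title of an old array carries its own animal number, so the 6 replicates of a group were different rats.

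A bout of exhausting exercise switches on, in a rodent muscle, early transcription factors, targets of glucocorticoids and of FoxO factors, and genes that act on vessels. Metallothioneins, small proteins that bind zinc and copper, belong to the genes that glucocorticoids and metals induce. Another set of genes, with the acetylcholine receptor subunit Chrna1 and the myogenic factor Myog (myogenin), is known to be high in muscle that has lost its nerve and low in innervated, active muscle.

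The response to the run differed between the old lines in 152 of 9558 genes tested, 1.59% of them, at an adjusted p below 0.05 (limma, Benjamini-Hochberg over all genes tested). In 78 genes (0.816%) the response was higher in HCR than in LCR, and in 74 (0.774%) it was lower. A difference of 1 on the log2 scale used throughout is a ratio of 2. The higher group held the large differences: 40 of its 78 genes differed by at least 1 and 16 by at least 2, with a median of 1.05. Of the 74 lower genes 7 reached 1 in size and only Egr1 reached 2, with a median of -0.58. The median over all genes tested was -0.05. This near-even split depended on scaling: it was 123 higher and 68 lower after quantile normalization of the deposited values, and 137 higher and 46 lower after centring each array on its median. The count was 32 in a fit of the 24 old arrays alone, and 76 to 340 when single arrays were left out. The plot of both responses shows 2 arms among the higher genes, one along the HCR axis and one along the LCR axis.

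**Figure D1:**
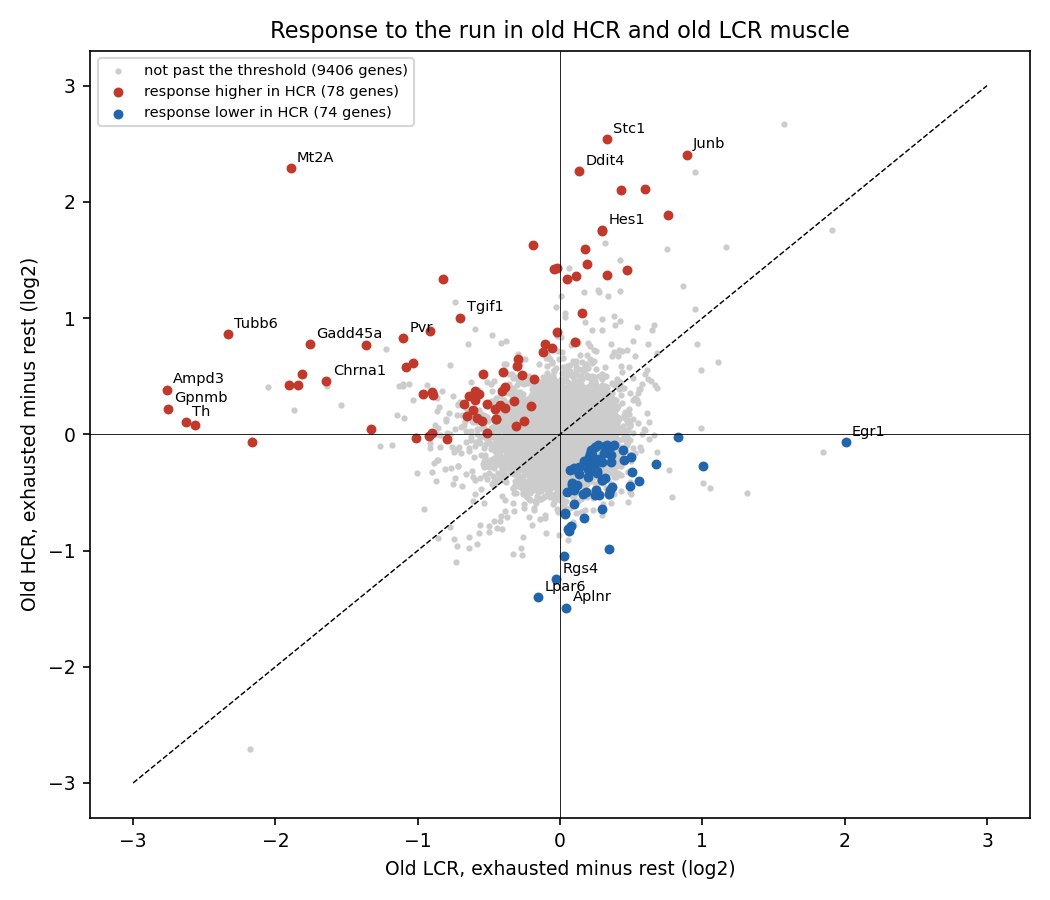
Each point is a gene, with the old LCR response (exhausted minus rest, log2) on the x axis and the old HCR response on the y axis. The dashed line marks equal responses. Red points are the 78 genes with a higher response in HCR, blue points the 74 with a lower one and grey points the 9406 genes not past the threshold. Stc1, Ddit4 and Hes1 lie high on the HCR axis, Ampd3, Gpnmb and Tubb6 far to the left on the LCR axis, and Mt2A is far from zero on both.

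A higher interaction arose in 2 main ways. In 28 of the 78 genes the HCR response alone passed the threshold and was a rise, with medians of 1.37 in HCR and 0.08 in LCR. In 35 the LCR response alone passed and was a fall, with medians of 0.22 in HCR and -0.90 in LCR. Mt2A, Pvr and Tgif1 rose in HCR and fell in LCR, Ptgs2 rose in both lines, and in 11 genes neither response passed by itself. Over all genes tested, 138 (1.44%) rose and 163 (1.71%) fell in HCR, and 70 (0.732%) rose and 134 (1.4%) fell in LCR. The HCR split moved with scaling, to 171 risen and 110 fallen after quantile normalization and 191 and 83 after centring, while the LCR split was 114 and 167, and 99 and 165. These responses are components of the interaction and share its arrays, so they describe it and do not support it.

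Promoters of 2 genes are shown: Mt2A, which has the largest interaction, and Chrna1, an acetylcholine receptor subunit of the denervation list that fell in LCR. Sequences are RefSeq's, build GRCr8, 5′ to 3′ on the gene's strand, and end at the base before the gene's start. In Mt2A (chr19:10838709-10838958, minus strand) capitals mark 5 matches to TGCNCNC on either strand. This is a loosened form of the core of the metal response element, with any base at N, so a match need not fit the core itself. In Chrna1 (chr3:78877354-78877453, minus strand) they mark 2 matches to CAGCTG, an E-box form bound by myogenic factors, which reads the same on both strands. Within each window no marked match overlaps another.
Mt2A: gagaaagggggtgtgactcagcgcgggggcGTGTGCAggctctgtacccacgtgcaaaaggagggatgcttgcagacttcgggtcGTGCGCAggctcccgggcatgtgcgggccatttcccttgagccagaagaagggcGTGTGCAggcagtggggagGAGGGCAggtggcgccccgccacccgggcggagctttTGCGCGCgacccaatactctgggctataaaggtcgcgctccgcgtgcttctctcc
Chrna1: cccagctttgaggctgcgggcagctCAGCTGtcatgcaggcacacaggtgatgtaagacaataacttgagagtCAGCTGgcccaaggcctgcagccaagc
Of 7808 tested genes with a promoter in the RefSeq table, 52.8% held TGCNCNC at least once in the 250 bases before the start and 0.512% held it 5 times or more. CAGCTG occurred in 13.1% of them, and 1.08% held it at least 2 times. Among the 35 genes that fell in LCR alone, 9 of the 29 with a promoter in the table held CAGCTG, 31% of them. That was the highest share of this motif among the gene sets counted. Of the 6 denervation list genes with a higher interaction, 4 had a promoter there and only 1, Chrna1, held it. Among the genes that rose in HCR alone 3 of 24 held it, 12.5%. A match describes the letters and is no evidence that a factor binds there.

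Mt2A, a metallothionein, stood furthest apart. It was at 6.06, 6.96 and 7.51 (lowest, median and highest of 6) in exhausted HCR muscle, against 4.16, 4.57 and 4.96 in HCR muscle at rest. In LCR muscle the values were 3.35, 4.62 and 5.88 when exhausted, against 4.41, 6.64 and 7.79 at rest. All exhausted HCR arrays lay above all resting HCR arrays and above all exhausted LCR arrays, while the LCR groups overlapped through 1 low array at rest. Above the filter on low values, 4.54, lay 6 exhausted and 3 resting HCR arrays, 3 exhausted LCR arrays and 5 resting ones. The lower level of Mt2A in each line was therefore near background, which limits how well the size of both responses is known. Mt2A rose by 2.29 ± 0.39 (SE, n = 6 per group) in HCR and fell by 1.89 ± 0.39 in LCR, an interaction of 4.18 ± 0.54 (adjusted p = 1.14e-05, limma). Each SE of a response or interaction here and below uses 1 spread per gene, shared by all 48 arrays, young ones included. A gene therefore has the same SE in both lines, even where the spread of its groups differed. Mt1f, a second metallothionein locus that was named after its values were seen, had an interaction of 2.16 ± 0.42 (adjusted p = 0.00309). Metallothioneins are closely related paralogs, and whether their probe sets hybridise to each other's RNA was not tested.

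Tgif1, a homeobox repressor in TGF-beta signalling, followed the same pattern on a smaller scale. It was at 6.08, 6.52 and 7.0 in exhausted HCR muscle, against 5.38, 5.57 and 5.70 at rest. Exhausted LCR muscle held 5.34, 5.64 and 5.96, against 5.20, 6.47 and 6.90 at rest. Exhausted HCR arrays again lay above all resting HCR and all exhausted LCR arrays. Resting LCR arrays lay above all exhausted LCR arrays save 1, replicate 3, which lay below them. The interaction was 1.70 ± 0.23 (adjusted p = 1.75e-05). Pvr, a cell surface receptor of the nectin family, averaged 8.14 ± 0.50 in exhausted HCR muscle and 7.31 ± 0.45 at rest (SD, n = 6 each). In LCR muscle Pvr averaged 7.15 ± 0.19 when exhausted and 8.26 ± 0.60 at rest, an interaction of 1.93 ± 0.29 (SE, adjusted p = 8.11e-05). In these 3 genes the higher HCR group was the exhausted one and the higher LCR group the one at rest.

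Among the genes that rose in HCR alone were Adamts9, Stc1 and Ddit4. Adamts9, a secreted protease of the extracellular matrix, was at 7.80, 8.78 and 9.20 in exhausted HCR muscle, against 6.37, 7.14 and 7.39 at rest. Its LCR values were 6.19, 6.45 and 6.82 when exhausted, against 6.23, 6.58 and 7.11 at rest. The lowest exhausted HCR array exceeded every other old array, and the LCR groups overlapped. Adamts9 rose by 1.63 ± 0.19 in HCR and differed by -0.19 ± 0.19 in LCR, an interaction of 1.82 ± 0.26 (adjusted p = 5.1e-05).

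Stc1, the secreted glycoprotein stanniocalcin 1, was at 5.54, 6.78 and 7.16 in exhausted HCR muscle, against 3.53, 4.17 and 4.84 at rest. LCR muscle held it at 4.33, 4.44 and 5.02 when exhausted, against 3.28, 4.18 and 5.43 at rest. Exhausted HCR arrays lay above all others, and its interaction was 2.21 ± 0.39 (adjusted p = 0.00116). Outside exhausted HCR muscle 5 of 18 old arrays were above the filter on low values, so the levels there are near background. Ddit4, also called REDD1, restrains the growth kinase complex mTORC1. It was at 8.46, 8.98 and 9.25 in exhausted HCR muscle, against 5.66, 6.82 and 7.13 at rest. In LCR muscle it was at 5.62, 6.86 and 7.34 when exhausted, against 6.19, 6.56 and 7.07 at rest. Here too the exhausted HCR group stood clear of the other old groups, which shared a range, and the interaction was 2.13 ± 0.40 (adjusted p = 0.00208).

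Hes1, a repressor that Notch signalling switches on, was at 7.56, 8.34 and 8.69 in exhausted HCR muscle, against 6.32, 6.43 and 6.87 at rest. LCR arrays gave 6.56, 6.77 and 6.89 when exhausted, against 5.98, 6.44 and 7.13 at rest. All 6 exhausted arrays lay above the rest mean of their line in both lines, but in LCR the groups overlapped and the difference of 0.29 ± 0.16 did not pass the threshold. The interaction of Hes1 was 1.46 ± 0.22 (adjusted p = 8.71e-05). Arrdc3, an adaptor in the turnover of adrenergic receptors, rose by 1.42 ± 0.17 in HCR and differed by -0.04 ± 0.17 in LCR. Coq10b, a coenzyme Q binding protein of mitochondria, rose by 2.10 ± 0.22 in HCR and differed by 0.43 ± 0.22 in LCR, an interaction of 1.67 ± 0.32 (adjusted p = 0.00208). Map3k6, a stress kinase, rose by 1.75 ± 0.19 in HCR and differed by 0.29 ± 0.19 in LCR. Nmt2, which attaches myristate to proteins, had an interaction of 0.94 ± 0.18 (adjusted p = 0.00208), with 0.54 ± 0.12 in HCR and -0.40 ± 0.12 in LCR.

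**Figure D2:**
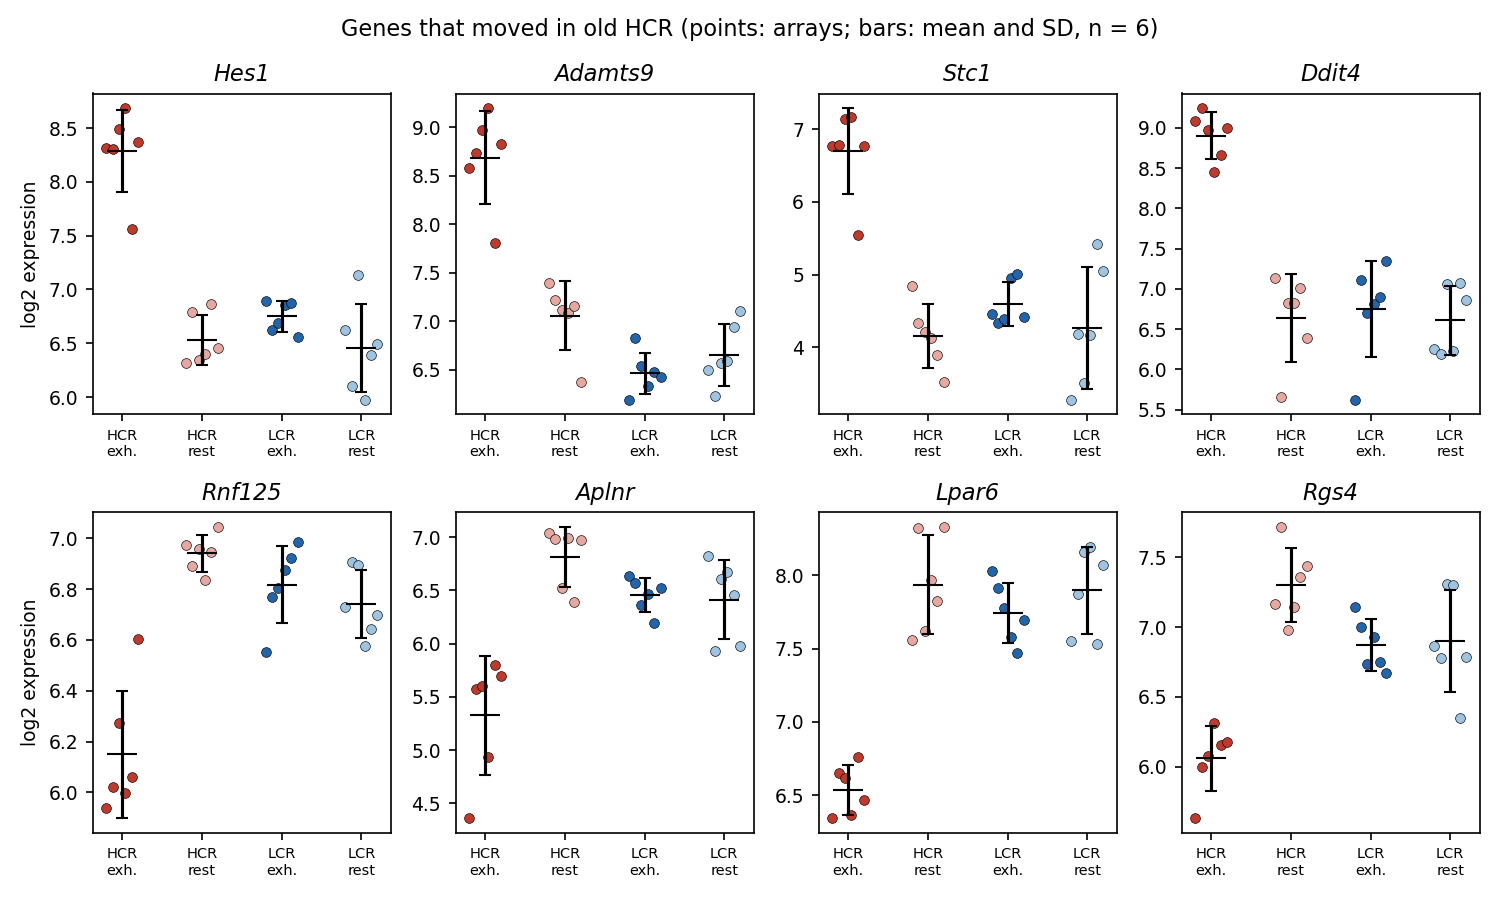
Points are single arrays, bars the mean and SD of 6, and the y axes log2 expression, with a range of their own in each panel. The upper row shows genes that rose in old HCR (Hes1, Adamts9, Stc1, Ddit4) and the lower row genes that fell there (Rnf125, Aplnr, Lpar6, Rgs4). In all but Rnf125 the exhausted HCR arrays lie outside the range of the other 3 groups.

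Among 23 immediate early genes tested, transcription factors and regulators induced within a short time of a stimulus, 3 had a higher interaction and 1 a lower one, with a list median of 0.10. Over all genes tested 0.816% were higher and 0.774% lower. In HCR 13 of the 23 rose (1.44% of all genes did) and in LCR 10 (0.732%). At rest 9 were higher in HCR and 0 lower, against 10.3% and 1.98% of all genes, shares that moved with scaling. The resting arrays are part of the interaction, so this is no separate evidence. Junb (1.52 ± 0.36, adjusted p = 0.0228), Maff (1.28 ± 0.33, adjusted p = 0.0339) and Klf10 (1.25 ± 0.30, adjusted p = 0.0229) were higher. Junb rose by 2.41 ± 0.26 in HCR, against 0.89 ± 0.26 in LCR, which did not pass. Egr1 went the other way, at -2.07 ± 0.55 (adjusted p = 0.039), and Fos, at -2.0, did not pass (adjusted p = 0.0819). Egr1, a zinc finger factor, was at 8.08, 8.51 and 8.97 in exhausted HCR muscle, against 7.59, 8.67 and 9.40 at rest. In LCR muscle Egr1 was at 8.76, 9.16 and 9.97 when exhausted, against 6.24, 7.41 and 8.24 at rest. The LCR groups did not overlap and the HCR groups shared a range, and Egr1 rose by 2.01 ± 0.39 in LCR and differed by -0.07 ± 0.39 in HCR. At rest Egr1 was higher in HCR than in LCR by 1.28 ± 0.39 (adjusted p = 0.0227, limma). After exhaustion the line difference of -0.79 ± 0.39 did not pass (adjusted p = 0.297, limma). Egr1 lost its call under 16 of 33 alternatives, Maff under 14, Junb under 3 and Klf10 under 2.

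Of 13 tested targets of glucocorticoids and FoxO factors, 4 were higher (Mt2A, Ddit4, Errfi1, Irs2) and 0 lower, with a median of 0.43. Over all genes tested 0.816% were higher and 0.774% lower. Errfi1, an inhibitor of EGF receptor signalling, had an interaction of 1.29 ± 0.27 (adjusted p = 0.0083) and Irs2, an adaptor of the insulin receptor, 1.05 ± 0.27 (adjusted p = 0.0382), a call lost under 14 of 33 alternatives. The list's median was 0.56 for the HCR response and 0.14 for the LCR response. Klf9, Fkbp5 and Foxo1, which are also targets, differed by -0.03, 0.10 and 0.04. In the inflammatory list 2 of 13 were higher: Nfkbia, the inhibitor of NF-kappaB, at 0.89 ± 0.21 (adjusted p = 0.0206), and Ptgs2, the cyclooxygenase COX-2, at 1.13 ± 0.28 (adjusted p = 0.0304). Among chaperones 1 of 15 passed, Hsph1, at 0.78 ± 0.18 (adjusted p = 0.0155).

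The genes that fell in LCR alone were high in old LCR muscle at rest. Of the 35, 29 were lower in HCR than in LCR at rest (limma, 1.98% of all genes tested were), with a median line difference of -0.71, and 4 were higher in HCR after exhaustion. Over all genes tested 385 differed between the exhausted lines (4.03%), 305 higher (3.19%) and 80 lower in HCR (0.837%). That split was 220 higher and 167 lower after quantile normalization, and 215 higher and 149 lower after centring. The rest comparison uses the same resting arrays as the interaction and is no separate evidence. Its split over all genes was 984 higher and 189 lower in HCR. It moved with scaling, to 365 and 342 after quantile normalization and 277 and 442 after centring. Ampd3, an AMP deaminase, was at 6.26, 6.91 and 9.29 in exhausted HCR muscle, against 5.51, 6.46 and 8.44 at rest. In LCR muscle Ampd3 was at 5.50, 6.21 and 7.54 when exhausted, against 6.51, 9.52 and 10.17 at rest. The resting LCR arrays were the high ones save replicate 3, the lowest of them, and the HCR groups overlapped along most of their range. Ampd3 fell by 2.76 ± 0.47 in LCR and differed by 0.38 ± 0.47 in HCR, an interaction of 3.15 ± 0.66 (adjusted p = 0.00753).

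Tubb6, a beta tubulin, was at 5.77, 6.85 and 9.37 in exhausted HCR muscle, against 5.25, 6.11 and 7.88 at rest. Exhausted LCR muscle held 5.29, 6.62 and 6.84, against 6.25, 9.22 and 9.54 at rest. Only replicate 3 of the resting LCR arrays fell into the exhausted LCR range, and the interaction was 3.20 ± 0.66 (adjusted p = 0.0063). Th, tyrosine hydroxylase, makes the precursor of catecholamines. Its values were 3.04, 3.48 and 3.70 in exhausted HCR muscle, against 2.72, 3.22 and 4.12 at rest. In LCR muscle they were 3.15, 3.80 and 4.66 when exhausted, against 3.64, 6.84 and 9.17 at rest. No array of Th in the other 3 groups exceeded 4.66, while the resting LCR arrays ranged far above and into that level. The interaction was 2.73 ± 0.61, but above the filter on low values lay 0 exhausted and 0 resting HCR arrays, 2 exhausted LCR arrays and 5 resting ones. The HCR response of Th was therefore taken between values near background, and the size of its interaction rests on the resting LCR arrays.

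Gadd45a, a growth arrest and stress gene, averaged 8.80 ± 0.95 in exhausted HCR muscle and 8.02 ± 0.81 at rest (SD, n = 6 each). In LCR muscle it averaged 8.32 ± 0.59 when exhausted and 10.07 ± 1.02 at rest, an interaction of 2.53 ± 0.54 (SE, adjusted p = 0.00898). Gpnmb, a membrane glycoprotein of lysosomes, fell by 2.76 ± 0.49 in LCR and differed by 0.22 ± 0.49 in HCR, an interaction of 2.98 ± 0.69 (adjusted p = 0.0184). Rrad, a small GTPase that restrains calcium channels, fell by 2.57 ± 0.46 in LCR and differed by 0.08 ± 0.46 in HCR, an interaction of 2.65 ± 0.65 (adjusted p = 0.0257). Trim63, the muscle ubiquitin ligase MuRF1, fell by 0.67 ± 0.12 in LCR and differed by 0.26 ± 0.12 in HCR, an interaction of 0.93 ± 0.17 (adjusted p = 0.00167). It was the 1 gene past the threshold among 12 of the atrophy list. Plin2, which coats lipid droplets, and Ctsl, a lysosomal protease, fell by 1.01 ± 0.17 and by 0.80 ± 0.15 in LCR. In the interaction Plin2 lost its call under 11 of 33 alternatives, Ctsl under 20 and Rrad under 8. Tubb6 and Th lost theirs in the fit of the old arrays alone. Ampd3, Gpnmb and Gadd45a lost theirs in that fit and also without resting LCR replicates 1 and 6.

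**Figure D3:**
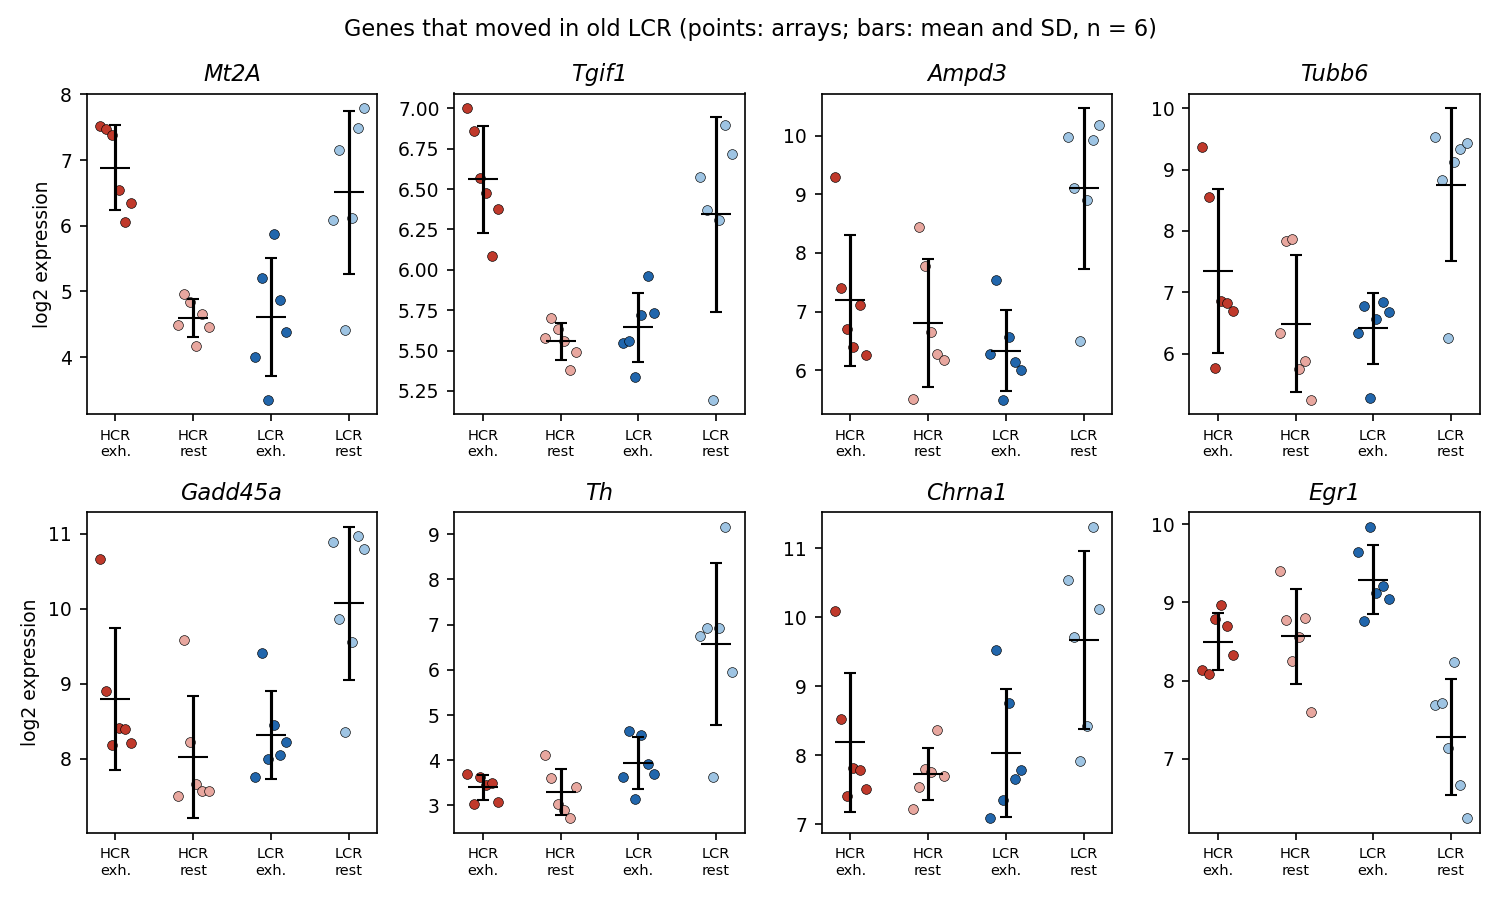
Points are single arrays, bars the mean and SD of 6, and the y axes log2 expression, with a range of their own in each panel. For Mt2A, Tgif1, Ampd3, Tubb6, Gadd45a, Th and Chrna1 the resting LCR group has the higher LCR mean, with 1 or more of its arrays low, and Egr1 shows the opposite order. In Ampd3 and Gadd45a exhausted HCR replicate 1 is the highest array of its group.

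Of 15 tested genes of the denervation and neuromuscular junction list, 6 had a higher interaction and 0 a lower one, with a list median of 1.36 against -0.05 over all genes. Over all genes tested 0.816% were higher and 0.774% lower. The list was chosen with earlier results of these data known, so its count and median describe these genes and are no separate evidence. The 6 were Ampd3, Rrad, Gadd45a, Chrna1 and, named after their values were seen, Myog (2.10 ± 0.50, adjusted p = 0.0229) and the histone deacetylase Hdac4 (0.91 ± 0.24, adjusted p = 0.0392). All 6 fell in LCR, and 0 of the 15 passed in the HCR response. Chrna1, the alpha subunit of the muscle acetylcholine receptor, was at 7.41, 7.80 and 10.09 in exhausted HCR muscle, against 7.22, 7.73 and 8.37 at rest. Its LCR values were 7.09, 7.73 and 9.53 when exhausted, against 7.92, 9.91 and 11.32 at rest. The LCR groups overlapped, and the interaction was 2.10 ± 0.55 (adjusted p = 0.039), a call lost under 18 of 33 alternatives. The fetal receptor subunit Chrng, at 1.36, and sarcolipin, Sln, at 2.08, did not pass, while the adult subunit Chrne was at 0.21 and the receptor anchor Rapsn at 0.08.

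The list's mean per array was 6.79 to 7.57 in exhausted HCR muscle save replicate 1, at 8.36, against 6.91 to 7.51 at rest. Exhausted LCR arrays had 6.71 to 7.45, against 8.75, 7.96, 7.17, 7.62, 8.80 and 8.55 in resting LCR replicates 1 to 6. Resting LCR replicates 1 and 6 were also high for tendon markers, with means of 7.12 and 7.39, against 5.68 to 6.08 in the other 4. Without these 2 arrays 0 of the 15 genes passed and 56 genes passed in all, while 340 passed in all without replicate 3. Without replicates 1 and 6 the interactions were 2.66 in Ampd3 (3.15 with all arrays), 2.15 in Gadd45a (2.53), 2.12 in Rrad (2.65) and 1.77 in Chrna1 (2.10), and the list's median was 1.13 (1.36). The count of 6 was 0 in the old arrays alone, 3 without exhausted HCR replicate 1 or 2, resting HCR replicate 6 or resting LCR replicate 5, and 2 without resting LCR replicate 6. In bulk muscle fewer cells of a type and less RNA per cell cannot be told apart.

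Of the 74 lower genes 34 fell in HCR alone, 14 rose in LCR alone and in 26 neither response passed. At rest 49 of the 74 were higher in HCR (10.3% of all genes were, a share that moved with scaling as given above). The resting arrays enter the interaction with the opposite sign, so this count too is no separate evidence. Rnf125, a ubiquitin ligase, had the smallest p. It was at 5.94, 6.04 and 6.61 in exhausted HCR muscle, against 6.84, 6.95 and 7.05 at rest. In LCR muscle it was at 6.55, 6.84 and 6.98 when exhausted, against 6.58, 6.71 and 6.91 at rest. The HCR groups did not overlap, and a single exhausted HCR array reached the LCR range. Rnf125 fell by 0.79 ± 0.09 in HCR and differed by 0.08 ± 0.09 in LCR, an interaction of -0.87 ± 0.13 (adjusted p = 8.71e-05).

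Aplnr, the apelin receptor of vessels, was at 4.36, 5.59 and 5.80 in exhausted HCR muscle, against 6.39, 6.98 and 7.03 at rest. LCR muscle held it at 6.19, 6.49 and 6.64 when exhausted, against 5.93, 6.53 and 6.83 at rest. Every exhausted HCR array was below every other old array, and the interaction was -1.53 ± 0.26 (adjusted p = 0.000632). Lpar6, a receptor for lysophosphatidic acid, was at 6.34, 6.54 and 6.76 in exhausted HCR muscle, against 7.56, 7.89 and 8.33 at rest. LCR arrays gave 7.47, 7.73 and 8.03 when exhausted, against 7.53, 7.97 and 8.19 at rest. Lpar6 too separated the exhausted HCR arrays from all others, with an interaction of -1.25 ± 0.24 (adjusted p = 0.00283).

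Efna1, a membrane-bound ligand of Eph receptors, averaged 7.29 ± 0.10 in exhausted HCR muscle and 8.12 ± 0.21 at rest (SD, n = 6 each). In LCR muscle it averaged 8.0 ± 0.26 when exhausted and 7.94 ± 0.13 at rest, an interaction of -0.89 ± 0.15 (SE, adjusted p = 0.000554). Rgs4, which shortens G protein signals, fell by 1.24 ± 0.17 in HCR and differed by -0.03 ± 0.17 in LCR. Its interaction was -1.22 ± 0.23 (adjusted p = 0.00283). Mylip, a ubiquitin ligase for the LDL receptor, fell by 0.68 ± 0.11 in HCR and differed by 0.03 ± 0.11 in LCR. Itpkb, a kinase of inositol trisphosphate, had an interaction of -0.79 ± 0.17 (adjusted p = 0.0127), and the corepressor Runx1t1 one of -0.82 ± 0.18 (adjusted p = 0.0141). The zinc finger genes Zc2hc1c and Zfp606 had interactions of -0.90 ± 0.19 (adjusted p = 0.0088) and -0.68 ± 0.15 (adjusted p = 0.0127).

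Podxl2, a sialomucin, was in the lower direction through LCR. It averaged 6.42 ± 0.19 in exhausted HCR muscle and 6.62 ± 0.12 at rest, and in LCR muscle 6.62 ± 0.13 when exhausted and 6.12 ± 0.18 at rest (SD, n = 6 each). It rose by 0.50 ± 0.09 in LCR, where the groups did not overlap, and had an interaction of -0.69 ± 0.13 (SE, adjusted p = 0.00208). Rsbn1l, at -0.38 ± 0.09 (adjusted p = 0.0155), has a second, dimmer probe set at 0.30, and the mean of both probe sets was -0.04. Gimap7, Tekt1, Rnf135, Sh3bp4 and Prrt1 had interactions of -1.33, -1.27, -1.07, -0.96 and -0.94, and lost their calls under 20 of 33, 2 of 32, 21 of 33, 11 of 33 and 11 of 32 alternatives. For Tekt1, 0 exhausted and 0 resting HCR arrays, 4 exhausted LCR arrays and 1 resting one lay above the filter on low values. Its HCR response was therefore taken between values near background. Rnf135 had 2 further probe sets, at -0.49 and -0.21.

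The Notch list held both directions: of 13 genes 1 was higher, Hes1, and 2 lower, Efna1 and the Notch ligand Jag1 (-0.68 ± 0.16, adjusted p = 0.0229), with a median of -0.13. Efna1, the lowest of the list at -0.89, is a ligand of Eph receptors and not of Notch, so its call is not a result about Notch signalling. Of 15 genes of angiogenesis and the hypoxia response 3 were higher (Stc1, Ddit4, Adamts9) and 1 lower (Aplnr), with a median of 0.03. Epas1, Adm and Egln3, which hypoxia is known to affect, differed by -0.14, 0.03 and 0.16. Among 9 endothelial markers 1 passed, Tek, the angiopoietin receptor, at -0.55 ± 0.15 (adjusted p = 0.0432), a call lost under 20 of 33 alternatives, and the list's median was -0.26. Of 6 smooth muscle and pericyte markers none passed in the interaction (median -0.38). In HCR 2 of them fell, Notch3 (by the brighter of its 2 probe sets) and Pdgfrb, where 1.71% of all genes did. The list's means were 7.34 to 7.90 in exhausted HCR muscle, against 7.77 to 8.34 at rest, and 7.67 to 8.03 in exhausted LCR muscle, against 7.58 to 7.96 at rest. Its part in the falls above was not tested.

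Genes of energy metabolism did not pass and lay mostly below zero. In oxidative phosphorylation 0 of 34 genes passed, with all 34 below zero. Their median was -0.18, against -0.05 over all genes tested, and stayed negative after quantile normalization and after centring. The genes of a list were measured on the same arrays, so counts of genes below zero are no test. In the citric acid cycle 0 of 16 passed (median -0.18, 1 gene above zero) and in fatty acid oxidation 0 of 19 (median -0.17, 2 genes above zero). At rest 20 of the 34 oxidative phosphorylation genes were higher in HCR, against 10.3% of all genes, both in the values as deposited. Over all genes the resting split of 984 higher and 189 lower became 365 and 342 after quantile normalization. After centring it was 277 and 442. The resting arrays are also part of the interaction, so the count of 20 is no separate evidence. Ndufa6, a subunit of complex I, rose by 0.48 ± 0.11 in LCR, differed by 0.10 ± 0.11 in HCR and had an interaction of -0.38 ± 0.16 (adjusted p = 0.217). Slow fibre markers had a larger negative median, -1.33, where 0 of 7 passed and the spread was wide: their mean per array was 8.66 to 9.55 in exhausted HCR muscle, against 8.10 to 10.13 at rest. In LCR muscle it was 7.83 to 9.0 when exhausted, against 6.24 to 8.97 at rest. For the slow troponins Tnnt1 and Tnnc1 the interactions were -1.51 ± 0.61 and -1.42 ± 0.57 (adjusted p = 0.2 and 0.204). The part of fibre type in the metabolic lists was not tested.

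**Figure D4:**
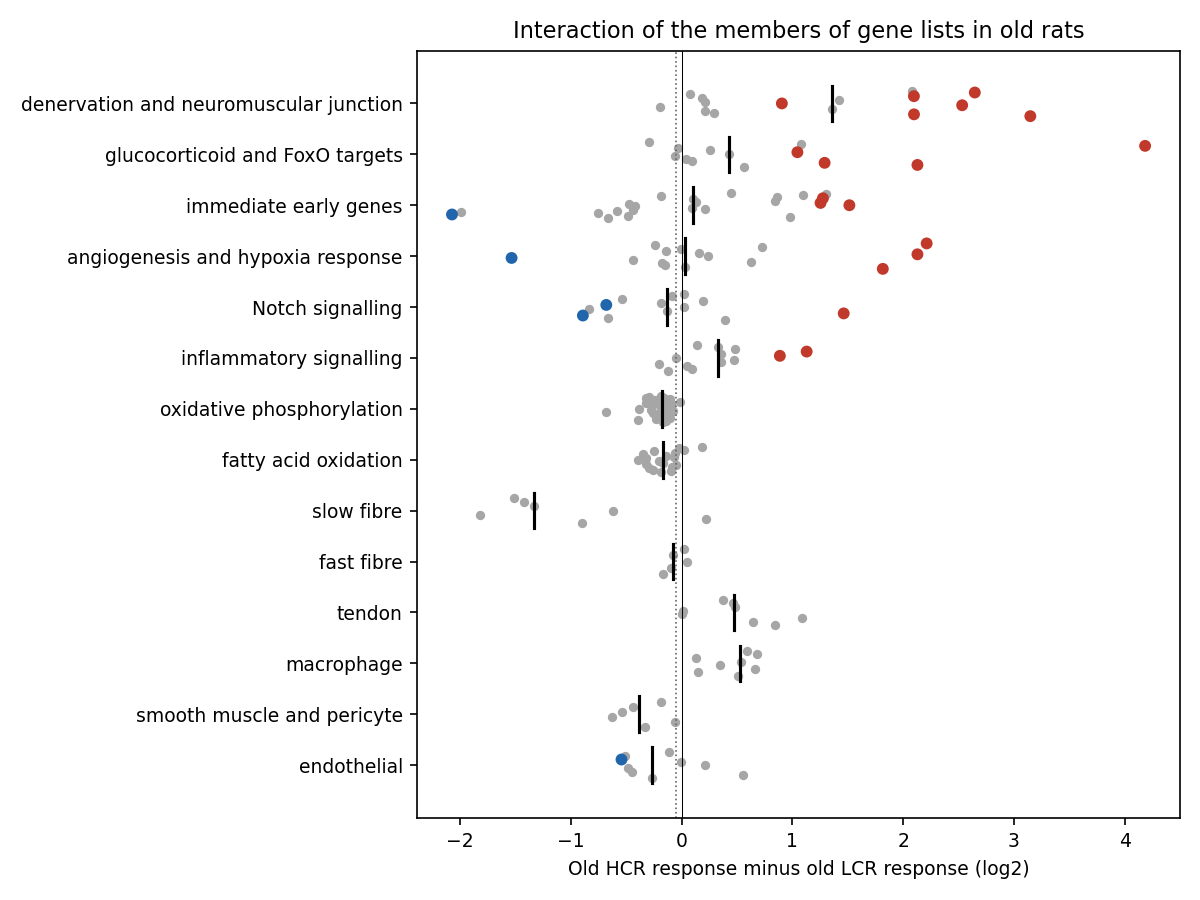
Each point is a tested member of a gene list, placed by its interaction (old HCR response minus old LCR response, log2), for 14 of the 36 lists with a tested member. Red points passed the threshold as higher and blue as lower, short black bars are list medians and the dotted line is the median of all genes, -0.05. The denervation list lies furthest to the right (median 1.36) and slow fibre markers furthest to the left (median -1.33), with no coloured point.

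Markers placed the samples as fast muscle: the mean of 5 fast fibre genes (Actn3, Mybpc2 and others) was 13.0 to 13.2 in all 24 arrays, with a median interaction of -0.08. Of 8 macrophage markers 0 passed in the interaction (median 0.53) and 4 rose in HCR (1.44% of all genes did). Their mean was 5.90 to 6.95 in exhausted HCR muscle, against 5.48 to 6.23 at rest, and 5.60 to 6.12 in exhausted LCR muscle, against 5.31 to 6.18 at rest. Their part in the genes that rose in HCR was not tested. Neutrophil markers had 0 of 8 members above the filter on low values. Liver and plasma protein genes were high in resting LCR replicate 2 (mean 6.98) and in resting HCR replicate 5 (6.75), and 0 of 14 passed in the interaction (median -0.20). That LCR array and exhausted HCR replicate 1 also had raised lower quartiles of all values and the lowest quality weights of the old arrays, 0.323 and 0.36. Without these and a young array 111 genes passed in all.

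The same interaction in young rats uses 24 other arrays. There 34 genes passed (0.356%), 26 higher (0.272%) and 8 lower (0.0837%). Of these, 19 also passed in old rats with the same sign, 12.5% of the old calls and 55.9% of the young ones. Among the 78 higher genes of old rats 54 had the same sign in young rats, 69.2%, against 47.3% of all genes above zero there. Among the 74 lower genes it was 57, 77%, against 52.7% of all genes below zero.

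The arms, which were set by thresholds on the old arrays, are described separately here, and no test compared them. All 28 genes that rose in HCR alone had a positive young interaction (median 0.88) and 12 of them passed in young rats. Hes1 was at 1.46 ± 0.22 in both ages, Adamts9 at 1.82 ± 0.26 in old and 1.68 ± 0.26 in young rats, and Coq10b at 1.67 ± 0.32 in old and 2.13 ± 0.32 in young rats. Of the 34 genes that fell in HCR alone 32 had the same sign (median -0.45) and 5 passed, among them Rnf125 and Aplnr, at -0.78 ± 0.13 and -1.40 ± 0.26 in young rats. Of the 35 genes that fell in LCR alone 14 had the same sign, with a median of -0.09 in young rats, and 1 passed, Trim63, at 0.71 ± 0.17 (adjusted p = 0.0466). Ampd3 was at 3.15 ± 0.66 in old and -0.47 ± 0.66 in young rats, and Tubb6 at 3.20 ± 0.66 in old and -0.26 ± 0.66 in young rats. The denervation list had a median of 1.36 in old and -0.11 in young rats.

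**Figure D5:**
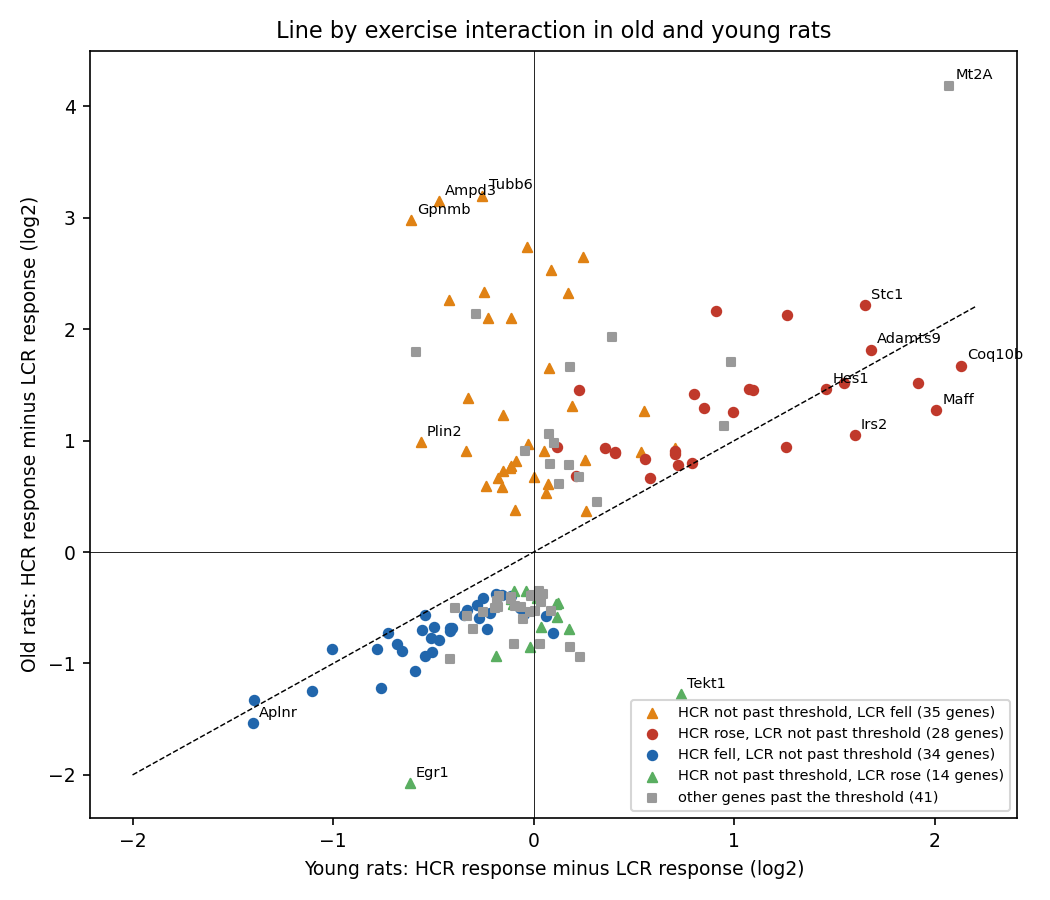
Points are the 152 genes past the threshold in old rats, with the young interaction on the x axis and the old one on the y axis (log2). The dashed line marks equal values and the marks show which line's response passed in old rats. Genes that moved in HCR (circles, 28 and 34 genes) spread along the line, and the 35 genes that fell in LCR (upward orange triangles) stand above zero on the y axis and around zero on the x axis.

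The test of the difference itself, old interaction minus young interaction, passed in 0 of 9558 genes (limma, smallest adjusted p = 0.141), with 682 genes (7.14%) at an unadjusted p below 0.05. No gene can therefore be called particular to old rats. The smallest p-values among higher differences were those of Plin2 (1.55 ± 0.35, adjusted p = 0.173), Tcp11l1 (1.14 ± 0.26, adjusted p = 0.188), Ampd3 (3.62 ± 0.93, adjusted p = 0.332), Mill1 (1.49 ± 0.38) and the tryptophan tRNA ligase Wars1 (0.74 ± 0.19). Among lower ones they were those of Podxl2 (-0.87 ± 0.18, adjusted p = 0.141), Tekt1 (-2.01 ± 0.43), the semaphorin Sema7a (-1.16 ± 0.27), Mterf1-ps1 (-0.69 ± 0.18) and the complexin Cplx2 (-1.08 ± 0.29). Values of Tekt1 in old HCR muscle were near background, as given above. Without resting LCR replicate 3, 17 genes passed this test, 14 higher and 3 lower.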

How the data were processed

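Affymetrix Rat Gene ST 2.1 arrays measured RNA of 48 rat EDL samples, and the 24 old arrays carry the interaction. The authors deposited log2 values per probe set; per the series' design text they were made with Expression Console, and per the submitters' processing notes with RMA and oligo, without versions. The program behind the final table was not given in the sources used here. The RMA method makes distributions of arrays alike, so a shift shared by most genes cannot be read. An array has no read depth, and the number of arrays limits the precision.

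Of 36685 probe sets, 14824 name exactly 1 gene in the platform's annotation, 829 several and 21032 none; 14670 matched current rat records by Entrez identifier, 89 by symbol and 65 not. The brightest probe set stood for each of 14557 genes. The 9558 genes tested exceeded the overall median, 4.54, on 6 arrays or more.

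One limma 3.58.1 model (R 4.3.3) with 8 group means, 40 residual degrees of freedom and two-sided moderated tests gave all contrasts, adjusted by Benjamini-Hochberg at 0.05. Figures were drawn with matplotlib 3.10.9. The fit was tested on simulated data. Values ran from 0.569 to 13.6, old array medians from 4.51 to 4.59, and correlations within old groups from 0.964 to 0.986 over genes tested.

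Named genes were, per direction, the 12 with the smallest p and the 6 next largest differences, up to 5 of the old minus young term, and from each of 37 lists up to 4 past the threshold or else 2 with the smallest p. The members, lists and tests were chosen with earlier results of these data known. Alternatives were another normalization, centring, filters, array weights, probe set means, the old arrays alone, and left-out arrays. The labels give no batch, so none was tested.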

Additional observations from a re-analysis of the deposited data

Results flagged for a closer look

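The response differed between the old lines by the interaction test in 152 genes, of which 78 responded more positively in HCR and 74 more negatively. Single arrays were examined for list means and for the genes named by the p or size of their interaction, and not for other named genes. Among these 288 groups of 6 arrays 28 held an array far from the other 5 by Dixon's test, which chance gives in about 1 of 20 groups.

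Resting LCR replicate 3 was low for Tgif1 (5.20), Trim63 (9.91), Tubb6 (6.25), Ampd3 (6.51) and the atrophy list mean (9.11). Exhausted HCR replicate 1 was high for Pvr (9.08), Ampd3 (9.29) and Gadd45a (10.67), and low for the citric acid cycle mean (10.96). Exhausted HCR replicate 5 was low for Hes1 (7.56) and Stc1 (5.54), and high for the liver and plasma protein mean (5.42). Exhausted HCR replicate 2 was high for the calcium handling mean (10.24) and the lymphocyte marker mean (5.88). Resting HCR arrays stood out in Adamts9 (replicate 6, 6.37), Gadd45a (replicate 2, 9.59), Rsbn1l (replicate 6, 8.57) and the TGF-beta and BMP mean (replicate 1, 6.42).

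Exhausted LCR replicate 3 was low for Tubb6 (5.29) and high for Itpkb (7.51) and the chaperone mean (9.57). Exhausted LCR replicate 1 was low for Arrdc3 (8.11), and replicate 5 for the p53 and cell cycle arrest mean (6.57). The other resting LCR arrays that stood out were replicate 1 in Zc2hc1c (7.21), replicate 4 in Rsbn1l (8.13) and in the Schwann cell mean (4.81), replicate 6 in the adipocyte mean (6.57), and replicate 2 in the liver and plasma protein mean (6.98).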

How the results depend on the processing

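No paired analysis was possible because replicate numbers follow accession order and pair no rats. The planned fit of the 24 old arrays alone gives no value for the young or old minus young terms. The cause of each change below was not tested, beyond fewer arrays or genes entering a fit.

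None of the 51 named genes past the threshold changed direction under the 33 alternatives, and 22 kept their call under all that tested them, among them the 12 higher genes with the smallest p. Of the named genes not past it, Kera (1.09, lowest -0.00) and Tf (0.30, lowest -0.08) crossed zero. The count of 152 was 32 in the old arrays alone (32 shared), 65 with no filter on low values (64 shared), 204 with array weights, 211 with the stricter filter and 56 without resting LCR replicates 1 and 6 (52 shared). Leaving out single arrays gave 76 to 340. It was 85 and 89 without exhausted HCR replicates 1 and 2, 90 and 81 without resting HCR replicates 2 and 6, 101, 87 and 97 without exhausted LCR replicates 1, 3 and 5, and 340, 76 and 77 without resting LCR replicates 3, 5 and 6.

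The HCR response had 301 genes, and 199 in the old arrays alone. The LCR response had 204, but 52 in the old arrays alone, 331 with array weights, 383 without the 3 arrays that stand apart, 44 without resting LCR replicates 1 and 6, and 102 to 361 without single arrays. The line difference at rest had 1173 genes (984 higher in HCR, 189 lower), 778 in the old arrays alone, 707 after quantile normalization (365 higher, 342 lower) and 719 after centring (277 higher, 442 lower). The young interaction had 34, and 70 with array weights. The old minus young term had 0, 3 with array weights, and 0 to 17 without single arrays.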

Other observations

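In the calcium handling list 0 of 8 genes passed (median -0.12), in the extracellular matrix list 0 of 20 (median 0.03), in the glycolysis and glycogen list 0 of 12 (median -0.09) and in the amino acid and ER stress list 0 of 13 (median 0.13). The circadian clock list had 0 of 10 past the threshold (median 0.03), with Bmal1, a core clock activator, at -0.96 ± 0.29 (adjusted p = 0.0696, limma) and Per1, a clock repressor that glucocorticoids induce, at 1.08 ± 0.37 (adjusted p = 0.126). Per1 rose by 1.5 ± 0.26 in HCR and differed by 0.42 ± 0.26 in LCR, and Bmal1 fell by 0.91 ± 0.20 in HCR and differed by 0.06 ± 0.20 in LCR. In the oxidative stress list 1 of 14 passed, the stress factor Nfe2l2, at 0.37 ± 0.10 (adjusted p = 0.0469), a call lost under 21 of 33 alternatives.

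The autophagy and lysosome list had 2 of 13 higher, Gpnmb and Ctsl (whose call was lost under 20 of 33 alternatives), with a median of 0.02. Of p53 and cell cycle arrest genes 1 of 8 passed, Gadd45a (median 0.40), and of the TGF-beta and BMP list 1 of 11, Tgif1 (median 0.05). The metallothionein and zinc list had 1 of 6, Mt2A (median 0.18), and the translation and mTORC1 list 1 of 12, Ddit4 (median -0.01). The fasting response list had 0 of 17 (median -0.03). The medians of these last 2 lists changed sign when arrays were centred. Among markers of other cells, fibroblast (7 tested, median 0.07), tendon (8, median 0.47), satellite cell (6, median -0.06), Schwann cell (5, median -0.09), adipocyte (6, median 0.21), lymphocyte (3, median 0.49) and erythroid genes (2, median -0.84) had 0 past the threshold each. The tendon median was -0.03 without resting LCR replicates 1 and 6.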
